A study of Mus musculus with 21 samples.

Results

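The matrix-degrading proteases of the Adam, Adamts and Mmp families, the ADAMTS-like proteins and the Timp inhibitors were examined for DNA methylation capture in cultured mouse synovial fibroblasts. Members were all listed regions whose assigned gene symbol starts with Adam, Adamts, Adamtsl, Mmp or Timp followed by a number. The rule used gene names only and found 125 regions at 44 genes, of 49307 listed regions in all, of which 25390 were assigned to one of 9615 genes. By comparison these were 36 of 13125 regions at 3 weeks, 19 of 11975 at 8 weeks, 24 of 7309 at 11 weeks and 46 of 16898 in the TNF comparison.

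Synovial fibroblasts line the joint and are a main source of the enzymes that degrade cartilage and bone matrix in arthritis. MMPs are zinc proteases that cleave collagens, gelatin and other matrix proteins. ADAMTS enzymes are secreted, and include the cleavers of aggrecan and versican as well as the enzymes that trim procollagens. ADAMs are membrane proteins that shed receptors, ligands and adhesion molecules, and several are made in testis and act in sperm. TIMPs bind the active sites of these enzymes and block them. Methylation near a transcription start often goes with a silent gene, whereas methylation in a gene body carries no such simple reading.

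The groups were fibroblasts from Tg197 mice at 3, 8 and 11 weeks of age, a line made arthritic by a transgene for human TNF; fibroblasts of wild-type (WT) mice at 8 weeks exposed to TNF; and WT fibroblasts at 3, 8 and 11 weeks. Each of the 7 groups had 3 libraries. All 21 samples came from CBA x C57BL/6J mice and from cells grown for 4 to 5 passages, and the labels give neither the dose nor the duration of the TNF exposure. In MethylCap-seq, sheared DNA is bound to a methyl-CpG-binding protein and the bound DNA is sequenced, so the reads in a region follow both its methylation and its number of CpG sites. In a culture, fewer cells with a methylated region and less methylation of it in each cell cannot be told apart. Whether the replicates came from separate animals or cultures is not stated in the labels, so p-values cover the spread among the samples at hand, possibly a technical one. The tables hold no expression values, so the cell type could not be checked by its transcripts. Regions at 3 short lists of fibroblast, macrophage and endothelial marker genes were listed too, between 1 and 4 per list where present, and their differences are given here as log2 folds of capture. After TNF every one of them was lower, as were most protease regions, with folds of -1.98 at Pdpn and -1.19 at Col1a2 (fibroblast), -2.00 at Itgam (macrophage) and -1.60 at Kdr, -1.23 at Cdh5 and -1.09 at Pecam1 (endothelial). At 8 weeks the fibroblast region at Pdpn (-1.11) and the macrophage region at Csf1r (-1.17) were lower. At 11 weeks Pecam1 was higher (0.92) and Tek did not pass (-0.46). At 3 weeks 1 of 3 fibroblast regions was higher and 1 lower, the macrophage region was lower and 2 of 4 endothelial regions were lower. Their part in the results was not tested.

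Each table lists regions that the submitters had already selected for a difference between 2 groups, and the 3 values of a group stand in 1 cell without replicate numbers. Libraries are therefore named 1 to 3 by their place in the cell. Reads recovered in the listed regions ranged per library from 2230884 to 2875554 at 3 weeks, 695108 to 1143699 at 8 weeks, 385155 to 544797 at 11 weeks and 1285306 to 1858694 in the TNF comparison. TNF-treated libraries 1 and 2 did not differ at any of the 16898 regions and entered as 1 sample, so the values given are those of libraries 1 and 3 (n = 2 against 3). The WT libraries at 8 weeks serve both the 8-week and the TNF comparison, which are therefore not independent. Some libraries stood apart. At 8 weeks Tg197 library 2 was the nearest of its group to WT in 6 of 7 gained and in 10 of 12 lost protease regions, and WT library 3 was the nearest to Tg197 in 7 of the 12 lost ones. Chromosome X held 259 regions close to a start (1 kb or less) in that table. There the Tg197 libraries 1, 2 and 3 had median log2 ratios of 1.44, -0.27 and 1.12 against the mean of WT. No protease or inhibitor region lay on that chromosome. At 11 weeks Tg197 library 2 was the nearest to WT in 11 of 13 gained regions, while WT library 3 was the nearest to Tg197 in 10 of 11 lost ones. At the 19 X regions close to a start, WT libraries 1, 2 and 3 had medians of 1.65, -0.07 and 0.40 against the Tg197 mean. Autosomal regions outside these families held the same order, by median log2 ratio to the other group's mean. At 8 weeks Tg197 libraries 1, 2 and 3 had 1.02, 0.33 and 0.76 where gained and -1.43, -1.20 and -1.51 where lost. The WT libraries had 1.61, 1.55 and 0.93 where lost. At 11 weeks the Tg197 libraries had 1.04, 0.95 and 1.55 where gained and the WT libraries 1.13, 0.65 and 0.55 where lost. These library differences were not particular to the proteases. The part of these libraries in the results was not tested.

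Most regions lay far from a start. Of the 125, 112 were in gene bodies and 13 in promoter classes, that is within 3 kb of a start (10.4%, against 12.1% of all regions assigned to a gene). The median distance from the start was 45.1 kb, against 28.3 kb over all regions assigned to a gene, and the 44 genes had a median length of 46.1 kb, against 32.0 kb over all listed genes. The median gene length was 72.5 kb for the 13 Adam genes, 121 kb for the 16 Adamts genes, 191 kb for the 2 Adamtsl genes, 14.3 kb for the 10 Mmp genes and 49.1 kb for the 3 Timp genes.

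Sequence was available for the starts of Adam1a and Adam6a, both testis and sperm Adam genes. Each had a listed region that reaches over the start assigned by the submitters. They are shown because capture depends on CpG sites, which are in capitals. The sequences are from RefSeq, build GRCm38.p6, 250 bases before to 50 after the start, read in the direction of the gene. Adam1a is at chr5:121521646-121521945 on the minus strand and Adam6a at chr12:113543658-113543957 on the plus strand, while the positions of all listed regions are in mm9 and were not converted.
Adam1a: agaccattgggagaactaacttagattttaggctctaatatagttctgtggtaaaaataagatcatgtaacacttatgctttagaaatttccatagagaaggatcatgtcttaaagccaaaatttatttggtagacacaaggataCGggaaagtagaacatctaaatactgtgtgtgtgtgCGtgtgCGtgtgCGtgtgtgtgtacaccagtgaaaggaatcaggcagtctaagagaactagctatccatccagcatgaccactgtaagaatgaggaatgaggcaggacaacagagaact
Adam6a: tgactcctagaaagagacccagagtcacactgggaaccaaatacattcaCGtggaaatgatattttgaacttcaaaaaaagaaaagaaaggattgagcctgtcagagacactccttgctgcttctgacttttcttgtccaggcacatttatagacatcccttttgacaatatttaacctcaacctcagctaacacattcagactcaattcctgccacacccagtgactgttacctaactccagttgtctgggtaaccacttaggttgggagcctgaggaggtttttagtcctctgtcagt
A search for the letters CG, which read the same on both strands, found 4 sites at Adam1a and 1 at Adam6a. The 28 promoters held for 26 listed protease and inhibitor genes had a median of 19 sites, against a median of 7 over all 32851 RefSeq promoters of the same length. Of all promoters, 68.6% held at least as many as Adam1a and 94.6% at least as many as Adam6a. A region over the start of Adam5 and one that ended 75 bp before the start of Adam18 were listed as well.

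Values were compared by limma on log2(value + 1), with Benjamini-Hochberg adjustment over a table's regions and a 0.05 threshold, and fold changes are on that log2 scale. Because the regions had been selected for a difference, a region past the threshold is a retest of that selection. At 3 weeks 31 of the 36 regions passed it (86.1%), against 85.0% of all 13125 regions and 84.7% of those assigned to a gene. At 8 weeks 13 of 19 passed (68.4%), against 54.0% of all regions and 57.1% of those assigned to a gene. At 11 weeks 18 of 24 passed (75.0%), against 77.9% of all regions and 78.3% of those assigned to a gene. With TNF 44 of 46 passed (95.7%), against 93.8% of both. The shares lay near those of the other listed regions at 3 and 11 weeks and with TNF, and above them at 8 weeks, where only 19 regions were counted. No count here is particular to the proteases and inhibitors. The number of genes with a region past the threshold in at least 1 table was 42 of 44. The same count was not made over all listed genes, so it is not a result about the proteases.

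**Figure D1:**
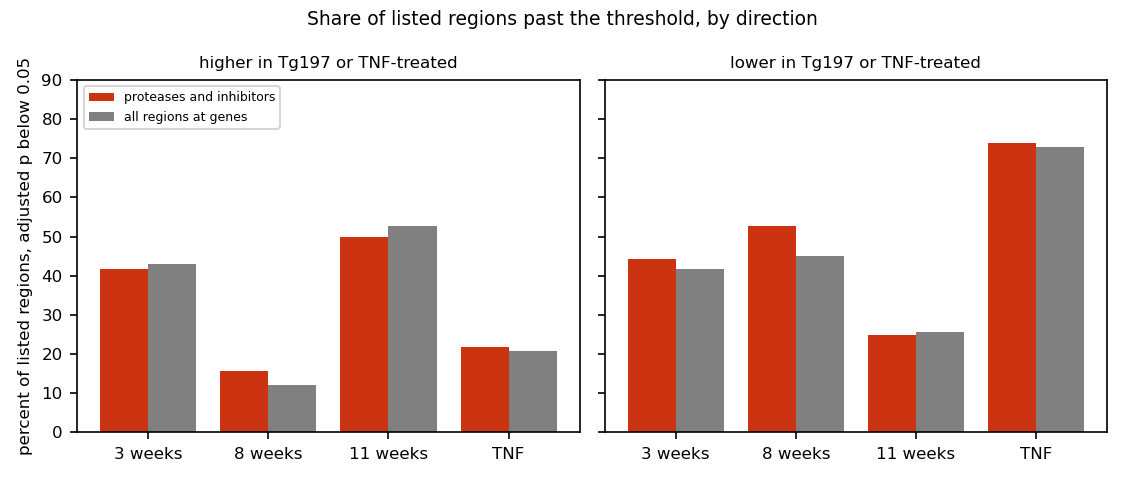
Bars give the percent of listed regions past limma's adjusted p of 0.05, higher in the left panel and lower in the right, for protease and inhibitor regions (red) and for all regions assigned to a gene (grey) in each table. With TNF 73.9% of the protease and inhibitor regions were lower, beside 73.0% of all regions at genes.

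The split between higher and lower lay near that of all regions at genes as well. Of the regions past the threshold, 15 were higher and 16 lower in Tg197 at 3 weeks, 3 higher and 10 lower at 8 weeks, 12 higher and 6 lower at 11 weeks, and 10 higher and 34 lower after TNF. Of all regions at genes, 42.9% were higher and 41.8% lower at 3 weeks, 12.1% and 45.0% at 8 weeks, 52.7% and 25.6% at 11 weeks, and 20.8% and 73.0% after TNF. The median log2 fold of the protease and inhibitor regions was -0.10 at 3 weeks (-0.08 over all regions at genes), -1.51 at 8 weeks (-0.94), 0.56 at 11 weeks (0.83) and -1.25 with TNF (-1.18). The splits depended on the scaling of the libraries. Library medians over the listed autosomal regions were also set equal, a scaling that can remove a real imbalance between gained and lost regions. Under it 19 were higher and 4 lower at 3 weeks, 4 and 9 at 8 weeks, 4 and 9 at 11 weeks, and 11 and 0 with TNF. With TNF 14 of 46 had an unadjusted p below 0.05 (limma). That scaling moved the median over all regions by 0.26 at 3 weeks, 0.32 at 8 weeks, -0.42 at 11 weeks and 0.94 with TNF. It did not centre the folds. The median went from -0.12 to 0.15 at 3 weeks and from -0.22 to 0.10 at 8 weeks. It went from 0.76 to 0.34 at 11 weeks and from -1.08 to -0.14 with TNF. Directions below hold for the deposited scaling.

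**Figure D2:**
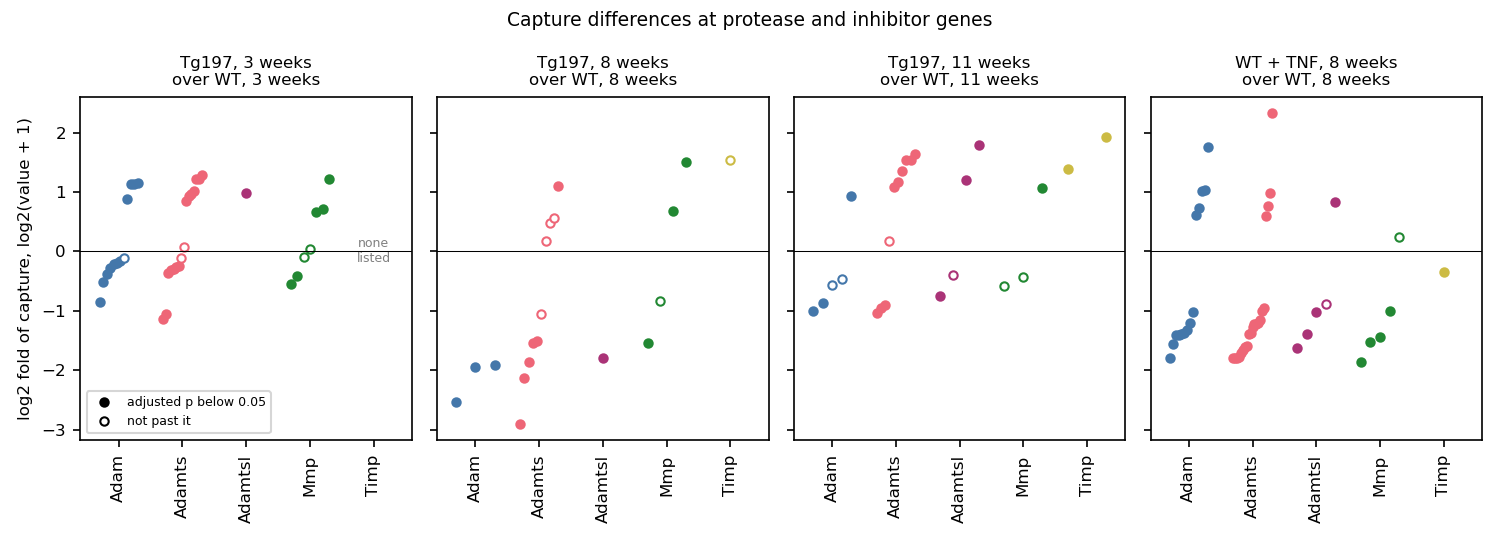
Each point is 1 region, by family on the horizontal axis, with its log2 fold of capture on the vertical axis, in 1 panel per comparison. Filled points passed limma's adjusted p of 0.05 and open points did not. At 8 weeks all 3 Adam regions lie below 0, and with TNF the 4 filled Mmp points lie below it.

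The comparison at 3 weeks addressed early disease. In Tg197 fibroblasts capture was higher within 3 kb of the starts of Mmp8, Mmp9 and Adam23 and in the gene bodies of Mmp14, Adam19, Adam12 and Adamts17, and it was lower at Mmp11, which encodes the stromelysin that cleaves few matrix proteins directly, and at Adam22. By family, 4 Adam regions were higher and 7 lower, 7 Adamts regions were higher and 7 lower, 1 Adamtsl region was higher, and 3 Mmp regions were higher and 2 lower. No Timp region was listed. The 2 groups did not overlap at 32 of the 36 regions, against 86.1% of all regions of the table.

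Among the matrix metalloproteinases, Mmp8 encodes the collagenase of neutrophils. Its region at 1.5 kb from the start (chr9:7559451-7560400) had 55.1, 51.9 and 47.5 normalized reads in the Tg197 libraries, against 15.0, 23.5 and 28.4 in the WT libraries (log2 fold 1.21, SE 0.24, limma adjusted p = 0.00173). Each Tg197 library was above each WT library. Mmp9, a gelatinase made by osteoclasts, neutrophils and stimulated fibroblasts, had a region at 2.13 kb (chr2:164775551-164776200) with 69.1, 89.6 and 97.9 normalized reads in the Tg197 libraries, against 54.5, 48.0 and 56.8 in the WT libraries (log2 fold 0.67, SE 0.16, limma adjusted p = 0.00247). The groups did not overlap there either. Mmp14, the membrane-type enzyme that activates pro-Mmp2 and lets cells invade collagen, had 106, 101 and 89.0 normalized reads in the Tg197 libraries, against 59.2, 67.9 and 52.3 in the WT libraries in its gene body (chr14:55054601-55055250; log2 fold 0.72), again without overlap. At Mmp11 both listed regions were lower and did not overlap. The region nearer the gene's end (chr10:75389601-75390550) had 117, 117 and 122 normalized reads in the Tg197 libraries, against 176, 180.1 and 165 in the WT libraries (log2 fold -0.55), and the other (chr10:75390801-75391450) had 181, 157 and 169 normalized reads in the Tg197 libraries, against 239, 208 and 233 in the WT libraries (log2 fold -0.42). The 2 regions of Mmp15, another membrane-type enzyme, did not pass the test, with log2 folds of 0.04 and -0.10.

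Adamts genes were split. Adamts17, which is known for eye and skeletal growth disorders in humans, had 25.9, 24.5 and 23.7 normalized reads in the Tg197 libraries, against 7.51, 12.7 and 9.09 in the WT libraries at chr7:74042601-74043450 (log2 fold 1.29, SE 0.30, limma adjusted p = 0.00233), and each Tg197 library was above each WT one. A second Adamts17 region was higher (0.85) and another did not pass (-0.11). Adamts20 is a cleaver of versican known in mice for its effect on pigment cells. It had 35.6, 48.1 and 40.5 normalized reads in the Tg197 libraries, against 25.4, 17.2 and 11.4 in the WT libraries at chr15:94134601-94135150 (log2 fold 1.22). In the next listed region, at chr15:94136051-94136850, it had 15.1, 16.0 and 13.8 normalized reads in the Tg197 libraries, against 31.9, 40.7 and 30.7 in the WT libraries (log2 fold -1.14). The groups did not overlap at either, so neighbouring stretches of 1 gene differed in opposite directions. Another region (chr15:94152301-94153050) had 21.6, 23.6 and 26.7 normalized reads in the Tg197 libraries, against 7.51, 10.9 and 11.4 in the WT libraries (log2 fold 1.21). Adamts13, the protease of von Willebrand factor, likewise had 1 region higher (log2 fold 0.96) and 2 lower (-0.29 and -0.37). Adamts9, a cleaver of versican and aggrecan, was higher (log2 fold 1.01), as were Adamts6 (0.93) and the ADAMTS-like gene Adamtsl1 (0.98), whose product lacks a catalytic domain. Adamts15, which cleaves the same substrates, had 494, 487 and 496 normalized reads in the Tg197 libraries, against 652, 542 and 579 in the WT libraries (log2 fold -0.26). That region was the most read of the members in this table, and its groups did not overlap. It passed limma (adjusted p = 0.00408), whereas the adjusted p of the submitters' own region test was 0.212. Adamts3, a procollagen N-propeptidase, was lower at 2 regions (-1.06 and -0.24), the second of which turned to 0.03 with library medians set equal. At Adamts10, a fibrillin-binding family member, 1 region was lower, with 139, 155 and 148 normalized reads in the Tg197 libraries, against 180.3, 194 and 174 in the WT libraries (log2 fold -0.31), and 1 did not pass (0.08).

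ADAM genes were split as well. Adam19, a meltrin that sheds neuregulin, had 28.1, 28.3 and 23.7 normalized reads in the Tg197 libraries, against 13.2, 9.05 and 12.5 in the WT libraries at chr11:45956251-45956900 (log2 fold 1.15, SE 0.28, limma adjusted p = 0.0026). Adam12, the meltrin that cleaves IGF-binding proteins, had 25.9, 35.8 and 29.7 normalized reads in the Tg197 libraries, against 9.39, 14.5 and 17.0 in the WT libraries at chr7:141160851-141161750 (log2 fold 1.13), and the groups overlapped at neither gene. The other Adam19 region did not pass (-0.11). A second Adam12 region, 223.0 kb from the start, was lower with 145, 159 and 136 normalized reads in the Tg197 libraries, against 248, 192 and 195 in the WT libraries (log2 fold -0.52). Adam33, known from human asthma, had 214, 214 and 214 normalized reads in the Tg197 libraries, against 272, 256 and 253 in the WT libraries (log2 fold -0.28). The 3 Tg197 values there lay within 1 normalized read of each other and below all WT values. Adam23 and Adam22 encode neuronal adhesion receptors without protease activity. The Adam23 region at 2.17 kb (chr1:63494201-63495100) had 27.0, 26.4 and 33.6 normalized reads in the Tg197 libraries, against 12.2, 9.05 and 18.2 in the WT libraries (log2 fold 1.13), without overlap. Adam22 had 62.6, 78.3 and 49.5 normalized reads in the Tg197 libraries, against 121, 125 and 97.7 in the WT libraries at 284.0 kb (log2 fold -0.86), and a second region was lower by a smaller amount (-0.17). Of the testis and sperm genes, Adam1a had 332, 338 and 320.5 normalized reads in the Tg197 libraries, against 396, 382 and 376 in the WT libraries at 1.88 kb (log2 fold -0.22), without overlap. Adam18 (-0.38) and Adam5 (-0.20) were lower too, and Adam32 was higher (0.88). With library medians set equal, the folds of Adam1a, Adam5 and the second Adam22 region turned to 0.04, 0.07 and 0.09, none past the threshold.

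At 15 of the 36 regions, against 37.2% of all regions of the table, the p-value in the authors' deposited table was below the exact binomial p of the recovered reads by a factor of more than 10. They include Adam33, Adam1a and Adamts10, which had many reads and small folds. The same held for 12 of the 46 regions of the TNF comparison, against 26.5% of all its regions.

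The comparison at 8 weeks addressed established disease. Most listed protease regions had less capture in Tg197 fibroblasts, with the largest differences at Adamts8, Adam9 and Adamts14, and Mmp28, Mmp17 and 1 Adamts19 region had more. All 3 Adam regions were lower. Of 10 Adamts regions 1 was higher and 5 lower, the Adamtsl1 region was lower, and of 4 Mmp regions 2 were higher and 1 lower. At 14 of 19 regions the groups were apart, against 69.6% of all regions.

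Adamts8, a cleaver of aggrecan, had 2.65, 8.30 and 0 normalized reads in the Tg197 libraries, against 44.0, 31.5 and 8.84 in the WT libraries at chr9:30770301-30770900 (log2 fold -2.91, SE 0.93, limma adjusted p = 0.0428). WT library 3 was the lowest of its group and stood just above Tg197 library 2, so the groups did not overlap but nearly met. Adamts14 trims the amino end of procollagens. Its region at chr10:60691001-60692050 had 5.30, 12.5 and 8.83 normalized reads in the Tg197 libraries, against 49.9, 61.4 and 21.0 in the WT libraries (log2 fold -2.13, SE 0.51, limma adjusted p = 0.0428), and WT library 3 was again the lowest of its group. Adamts9 had 3.98, 6.92 and 2.94 normalized reads in the Tg197 libraries, against 16.1, 17.2 and 23.2 in the WT libraries (log2 fold -1.87), with all WT values above all Tg197 values. Adamtsl1 had 2.65, 7.61 and 4.41 normalized reads in the Tg197 libraries, against 20.3, 14.2 and 21.0 in the WT libraries (log2 fold -1.80), also without overlap. Adamts18 (-1.55) and Adamts10 (-1.51) were lower. Adamts19 had 2 regions. The one 135.0 kb from the start was higher, with 31.8, 39.4 and 27.9 normalized reads in the Tg197 libraries, against 16.1, 18.0 and 11.1 in the WT libraries (log2 fold 1.10). The one at 85.5 kb had 18.6, 13.8 and 14.7 normalized reads in the Tg197 libraries, against 60.9, 54.7 and 11.1 in the WT libraries, where WT library 3 lay below every Tg197 library and the test was not passed (log2 fold -1.06, limma adjusted p = 0.16). The 2 Adamts20 regions (0.56 and 0.48) and the Adamts17 region (0.18) did not pass.

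Adam9, a widely made sheddase, had 0, 6.23 and 1.47 normalized reads in the Tg197 libraries, against 15.2, 12.7 and 14.4 in the WT libraries at chr8:26061251-26061800 (log2 fold -2.53, SE 0.73, limma adjusted p = 0.0428). No read fell in the region in Tg197 library 1, and Tg197 library 2 was the highest of its group, yet below all WT libraries. Adam12 had 2.65, 4.84 and 4.41 normalized reads in the Tg197 libraries, against 35.5, 18.7 and 7.74 in the WT libraries at 58.1 kb (log2 fold -1.92), without overlap and with a wide WT spread. At Adam1a the listed region covered the start assigned by the submitters (chr5:121971301-121972250 in mm9). Whether this is the start of the printed sequence was not checked. The region had 7.95, 12.5 and 5.88 normalized reads in the Tg197 libraries, against 54.1, 59.9 and 13.3 in the WT libraries (log2 fold -1.95, SE 0.62, limma adjusted p = 0.0428). WT libraries 1 and 2 were far above the rest, and WT library 3 was only just above the highest Tg197 library.

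Among the metalloproteinases, Mmp28, known as epilysin, had 18.6, 13.8 and 17.6 normalized reads in the Tg197 libraries, against 7.61, 7.49 and 2.21 in the WT libraries (log2 fold 1.51, SE 0.51, limma adjusted p = 0.045), without overlap. Mmp17, a membrane-type enzyme held by a lipid anchor, had 71.6, 65.7 and 95.6 normalized reads in the Tg197 libraries, against 55.0, 42.7 and 45.3 in the WT libraries (log2 fold 0.68), also without overlap. Mmp24, a membrane-type enzyme known from neurons, had 10.6, 20.1 and 8.83 normalized reads in the Tg197 libraries, against 27.1, 40.5 and 49.7 in the WT libraries (log2 fold -1.54), where all Tg197 values were below all WT values. Mmp14 had 25.2, 20.1 and 22.1 normalized reads in the Tg197 libraries, against 59.2, 50.9 and 22.1 in the WT libraries and did not pass (log2 fold -0.84), and WT library 3 lay within the Tg197 range. Timp3, the inhibitor that binds to the matrix and also blocks aggrecanases and Adam17, had 188, 38.1 and 129 normalized reads in the Tg197 libraries, against 51.6, 33.7 and 21.0 in the WT libraries at chr10:85789051-85789950 (log2 fold 1.53, SE 0.60, limma adjusted p = 0.061). Tg197 libraries 1 and 3 were above all WT libraries and Tg197 library 2 lay within the WT range, and the test was not passed.

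The number of calls in this table changed when single libraries were left out, and the cause was not tested. Without Tg197 library 1 or 3, or without WT library 1 or 2, limma called 0 of the 19 regions and 0.0% of all regions, while 12, 10, 10 and 8 of the regions kept an unadjusted p below 0.05. Without Tg197 library 2, the one nearest to WT, 5 regions were higher and 10 lower. Without WT library 3, 0 were higher and 8 lower, and 14 had an unadjusted p below 0.05. The share of all regions past the threshold without Tg197 library 2 or WT library 3 is not given here. Nothing particular to the proteases is read from these counts.

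**Figure D3:**
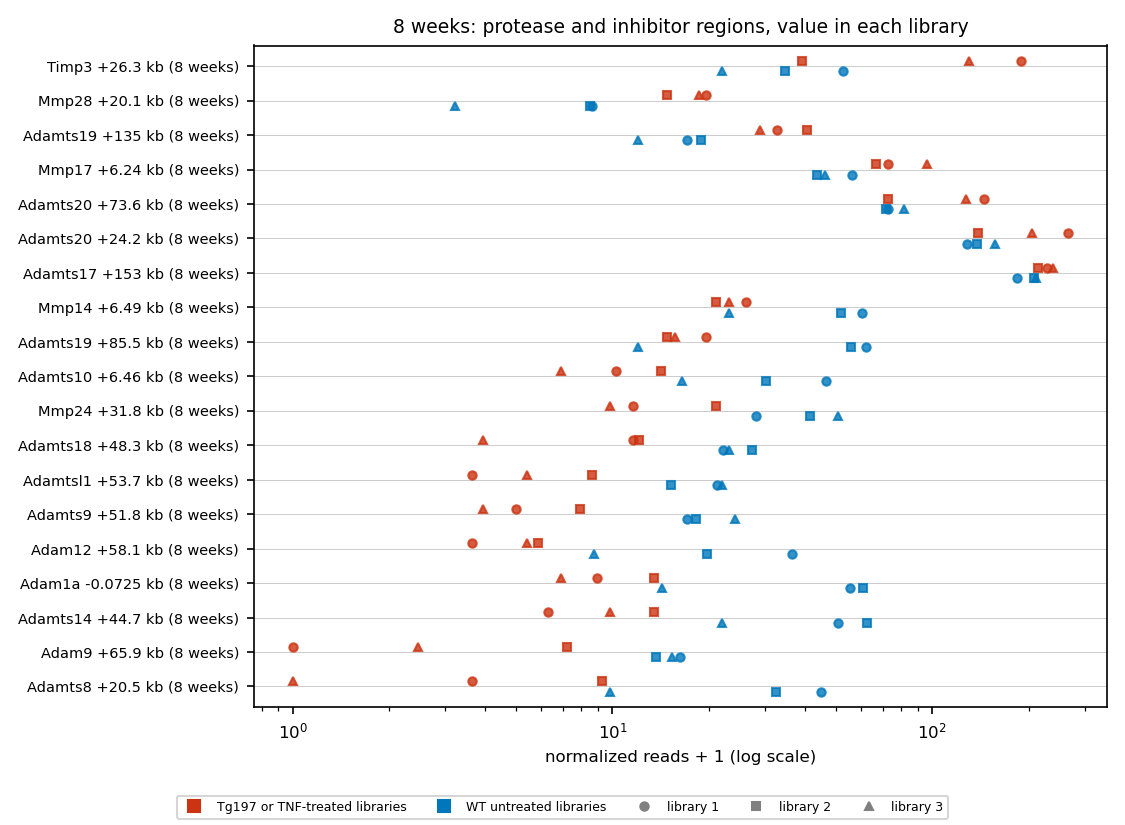
Values of all 19 regions at 8 weeks in each library, as normalized reads + 1 on a log axis, with the distance from the start beside each gene. Red symbols are Tg197 and blue symbols WT libraries, and the shape gives the library. Red squares (Tg197 library 2) lie nearest to blue in most rows, and blue triangles (WT library 3) lie left of the other WT symbols at Adamts8, Adam1a and Adamts14.

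The comparison at 11 weeks addressed late disease. Capture was higher in Tg197 fibroblasts in the gene bodies of both listed inhibitors, Timp3 and Timp4, and at Adamts2, Adamts9, Adamts13, Adamtsl1 and Mmp25. It was lower at Adam12 and Adam8. By family, 1 Adam region was higher and 2 lower, 6 Adamts regions were higher and 3 lower, 2 Adamtsl regions were higher and 1 lower, and 1 Mmp region was higher. At 18 of the 24 regions the groups were apart, against 83.7% of all regions. No region lay within 3 kb of a start.

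Of the inhibitors, Timp4 had 20.7, 13.7 and 29.3 normalized reads in the Tg197 libraries, against 1.36, 7.45 and 7.80 in the WT libraries at chr6:115196201-115196800 (log2 fold 1.93, SE 0.59, limma adjusted p = 0.0219). Timp3 had 17.6, 16.0 and 37.1 normalized reads in the Tg197 libraries, against 10.9, 7.45 and 5.85 in the WT libraries at chr10:85804401-85805050 (log2 fold 1.38, SE 0.43, limma adjusted p = 0.0219). The groups overlapped at neither, and Tg197 library 3 was the highest at both. The Timp3 region lies 14451 bp from the one listed at 8 weeks and does not overlap it.

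Adamts2 and Adamts14, both procollagen N-propeptidases, had regions in both directions. Adamts2 had 17.6, 18.3 and 37.9 normalized reads in the Tg197 libraries, against 8.16, 3.72 and 9.74 in the WT libraries at chr11:50539451-50540350 (log2 fold 1.64) and 16.8, 13.7 and 51.7 normalized reads in the Tg197 libraries, against 10.9, 2.79 and 11.7 in the WT libraries at chr11:50531551-50532050 (log2 fold 1.53). Tg197 library 3 was well above the other 2 at both. A further region was higher with 30.3, 25.2 and 41.4 normalized reads in the Tg197 libraries, against 19.0, 11.2 and 13.6 in the WT libraries (log2 fold 1.09). Nearer the start, at 76.9 kb, Adamts2 had 80.6, 77.9 and 60.4 normalized reads in the Tg197 libraries, against 231, 129 and 113 in the WT libraries (log2 fold -1.04), with WT library 1 far above the rest. None of the 4 Adamts2 regions overlapped between groups. Adamts14 was higher at 68.0 kb, with 16.0, 10.3 and 45.7 normalized reads in the Tg197 libraries, against 5.44, 5.58 and 7.80 in the WT libraries (log2 fold 1.53), and lower at 56.1 and 43.3 kb (log2 folds -0.91 and -0.96).

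Adamtsl1 was higher at 2 regions far apart in the gene. At 361.0 kb it had 19.9, 11.4 and 15.5 normalized reads in the Tg197 libraries, against 6.80, 0.930 and 5.85 in the WT libraries (log2 fold 1.79), and at 56.0 kb it had 51.9, 25.2 and 37.9 normalized reads in the Tg197 libraries, against 10.9, 20.5 and 16.6 in the WT libraries (log2 fold 1.20). The groups overlapped at neither, while a region between them did not pass (-0.39). Adamtsl5, a fibrillin-associated family member, was lower, with 166, 158 and 119 normalized reads in the Tg197 libraries, against 272, 250.4 and 225 in the WT libraries (log2 fold -0.76). Adamts9 had 49.5, 18.3 and 37.9 normalized reads in the Tg197 libraries, against 16.3, 13.0 and 12.7 in the WT libraries (log2 fold 1.17). Adamts13 was higher (1.36), although Tg197 library 2 lay within the WT range. At Adamts19 the values were 17.6, 13.7 and 143 normalized reads in the Tg197 libraries, against 27.2, 31.6 and 28.3 in the WT libraries. A single Tg197 library was far above all others and the other 2 were below every WT library, and the test was not passed (log2 fold 0.18, limma adjusted p = 0.806).

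Adam12 had 23.1, 19.5 and 12.1 normalized reads in the Tg197 libraries, against 42.1, 34.4 and 33.1 in the WT libraries (log2 fold -1.00), and Adam8, a sheddase of leukocytes and osteoclasts, had 18.4, 29.8 and 30.2 normalized reads in the Tg197 libraries, against 51.7, 48.4 and 42.9 in the WT libraries (log2 fold -0.87). All Tg197 values were below all WT values at both. Adam2, which encodes a sperm fertilin subunit, had 38.3, 49.2 and 53.5 normalized reads in the Tg197 libraries, against 19.0, 26.1 and 27.3 in the WT libraries (log2 fold 0.94). Mmp25, a membrane-type enzyme of leukocytes, had 32.7, 24.1 and 29.3 normalized reads in the Tg197 libraries, against 12.2, 11.2 and 16.6 in the WT libraries at 3.46 kb (log2 fold 1.06). The groups did not overlap at these 2 genes. Regions at Mmp24 (-0.59), Mmp15 (-0.43), Adam9 (-0.47) and Adam22 (-0.57) did not pass, and WT library 1 held the highest value at the last 3.

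At 11 weeks too the calls changed when single libraries were left out. Without Tg197 library 1 or 3 or WT library 2, limma called 0 regions, while 15, 16 and 16 of the 24 kept an unadjusted p below 0.05. No more than 0.137% of all regions passed under these settings.

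Exposure of WT fibroblasts to TNF was compared with the untreated WT fibroblasts of the same age. Capture was lower at 34 of the 46 regions, among them the promoter classes of Adamts5, Adamts16 and Mmp25 and the start of Adam6a, and higher at 10, among them the start of Adam5 and the first 10 kb of Adam12. By family, 5 Adam regions were higher and 9 lower, 4 Adamts regions were higher and 17 lower, 1 Adamtsl region was higher and 3 lower, 4 Mmp regions were lower and the Timp2 region was lower. At 44 of 46 regions the groups were apart, against 95.8% of all regions. WT library 3 was the nearest of its group to the treated libraries in 23 of the 35 lost regions. Autosomal regions lost outside these families gave WT libraries 1, 2 and 3 median log2 ratios of 1.53, 1.47 and 1.06 to the treated mean.

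Among the hyalectan-cleaving enzymes, Adamts5 is the main aggrecanase of mouse cartilage. Its region -1.31 kb from the start (chr16:85902401-85902950) had 5.97 and 4.96 normalized reads in the TNF-treated libraries, against 19.7, 32.8 and 9.83 in the WT libraries (log2 fold -1.61, SE 0.52, limma adjusted p = 0.0148). The treated values were close together and below all WT values, of which library 3 was the lowest. Adamts20 had 1 region lower, with 6.97 and 2.48 normalized reads in the TNF-treated libraries, against 16.3, 19.0 and 16.0 in the WT libraries (log2 fold -1.78), and 1 higher, with 50.8 and 36.0 normalized reads in the TNF-treated libraries, against 25.7, 24.4 and 14.7 in the WT libraries (log2 fold 0.99), both without overlap.

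Adamts3, which trims procollagen type II in cartilage cells, also differed in both directions. It had 14.9 and 9.92 normalized reads in the TNF-treated libraries, against 3.42, 3.05 and 0 in the WT libraries at chr5:90219101-90219700 (log2 fold 2.33, SE 0.72, limma adjusted p = 0.0127), and WT library 3 had no read there. At chr5:90280401-90281000, nearer the start, it had 10.9 and 6.20 normalized reads in the TNF-treated libraries, against 24.8, 33.5 and 27.0 in the WT libraries (log2 fold -1.66). The groups overlapped at neither. A further 2 Adamts3 regions were higher (0.59) and lower (-1.21). Both Adamts2 regions (-0.96 and -1.60) and both Adamts14 regions (-1.15 and -1.23) were lower.

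Of the remaining Adamts genes, Adamts16 had 3.98 and 2.48 normalized reads in the TNF-treated libraries, against 13.7, 12.2 and 14.7 in the WT libraries at 1.74 kb (chr13:70978651-70979250; log2 fold -1.80), without overlap. All 4 Adamts17 regions were lower, and those named by size or by the submitters' p had 7.96 and 2.48 normalized reads in the TNF-treated libraries, against 14.6, 21.3 and 19.7 in the WT libraries (log2 fold -1.79) and 6.97 and 9.92 normalized reads in the TNF-treated libraries, against 25.7, 25.1 and 19.7 in the WT libraries (log2 fold -1.38). Treated and WT libraries were apart at both, and the other 2 regions had folds of -1.01 and -1.27. Adamts13 was lower at 2 regions (-1.72 and -1.22), Adamts18 at 1 (-1.40) and Adamts19 at 1 (-1.79), where WT library 3 lay within the treated range. Adamts7, which cleaves the cartilage protein COMP, was higher, with 80.6 and 129 normalized reads in the TNF-treated libraries, against 55.6, 54.1 and 70.0 in the WT libraries (log2 fold 0.77), without overlap. Adamtsl1 was higher at 1 region (0.83), lower at 2 (-1.02 and -1.39) and not past the threshold at 1 (-0.89), and Adamtsl5 was lower (-1.62).

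Mmp25 had 2 regions in promoter classes. The one at 1.03 kb (chr17:23780951-23781450) had 10.9 and 3.72 normalized reads in the TNF-treated libraries, against 34.2, 20.6 and 25.8 in the WT libraries (log2 fold -1.86, SE 0.47, limma adjusted p = 0.0109), and the one at -2.34 kb (chr17:23784251-23784900) had 13.9 and 8.68 normalized reads in the TNF-treated libraries, against 31.7, 41.1 and 24.6 in the WT libraries (log2 fold -1.45). All treated values were below all WT values at both. Mmp24 had 4.98 and 6.20 normalized reads in the TNF-treated libraries, against 20.6, 20.6 and 13.5 in the WT libraries (log2 fold -1.53), and Mmp11 was lower (-1.01), both without overlap. Mmp1a, the mouse counterpart of interstitial collagenase, had 171 and 154 normalized reads in the TNF-treated libraries, against 122, 145 and 145 in the WT libraries and did not pass (log2 fold 0.24, SE 0.14, limma adjusted p = 0.111), although all treated values were above all WT values. Timp2, the inhibitor that also takes part in pro-Mmp2 activation, had 96.6 and 110.3 normalized reads in the TNF-treated libraries, against 137, 127 and 133 in the WT libraries at chr11:118162751-118163250 (log2 fold -0.35, SE 0.14, limma adjusted p = 0.031). The treated libraries were below all WT libraries by a small amount relative to the other regions, and with library medians set equal the fold was 0.62.

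Adam12 had 4 regions whose direction went with their place. At 2.28 kb (chr7:141414251-141414750) it had 37.8 and 39.7 normalized reads in the TNF-treated libraries, against 21.4, 12.9 and 23.4 in the WT libraries (log2 fold 1.01), and at 9.38 kb it was higher as well (0.73). Far inside the gene, at 203.0 kb, it had 13.9 and 7.44 normalized reads in the TNF-treated libraries, against 28.2, 36.6 and 31.9 in the WT libraries (log2 fold -1.56), and at 136.0 kb it was lower too (-1.41). None of the 4 overlapped between groups. All 3 Adam19 regions were lower, the one with the largest difference having 9.95 and 4.96 normalized reads in the TNF-treated libraries, against 39.4, 40.4 and 12.3 in the WT libraries (log2 fold -1.80), and the other 2 had folds of -1.37 and -1.39. Adam9 was lower (-1.21).

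Sperm genes had 2 regions that reached a start and 1 that ended 75 bp before it. At Adam5 (chr8:25934401-25935250) the values were 19.9 and 14.9 normalized reads in the TNF-treated libraries, against 10.3, 3.05 and 2.46 in the WT libraries (log2 fold 1.75, SE 0.59, limma adjusted p = 0.017). Treated libraries were above all WT libraries, of which library 1 was the highest. At the start of Adam6a (chr12:114781851-114782350 in mm9) they were 2.99 and 6.20 normalized reads in the TNF-treated libraries, against 13.7, 13.7 and 12.3 in the WT libraries (log2 fold -1.41), and just before the start of Adam18 (chr8:25785301-25785800) they were 10.9 and 18.6 normalized reads in the TNF-treated libraries, against 35.1, 25.1 and 30.7 in the WT libraries (log2 fold -1.02). Treated values were below all WT values at these 2 genes. Adam18 had a second lower region (-1.32), and both Adam2 regions were higher (1.03 and 0.61).

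Without WT library 2, limma called 5 regions higher and 25 lower, against 10 and 34 with all libraries. The share of all regions past the threshold under that setting is not given here. Leaving out TNF-treated library 1 or 3 left a single treated sample, which is assumed to vary like the WT group.

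**Figure D4:**
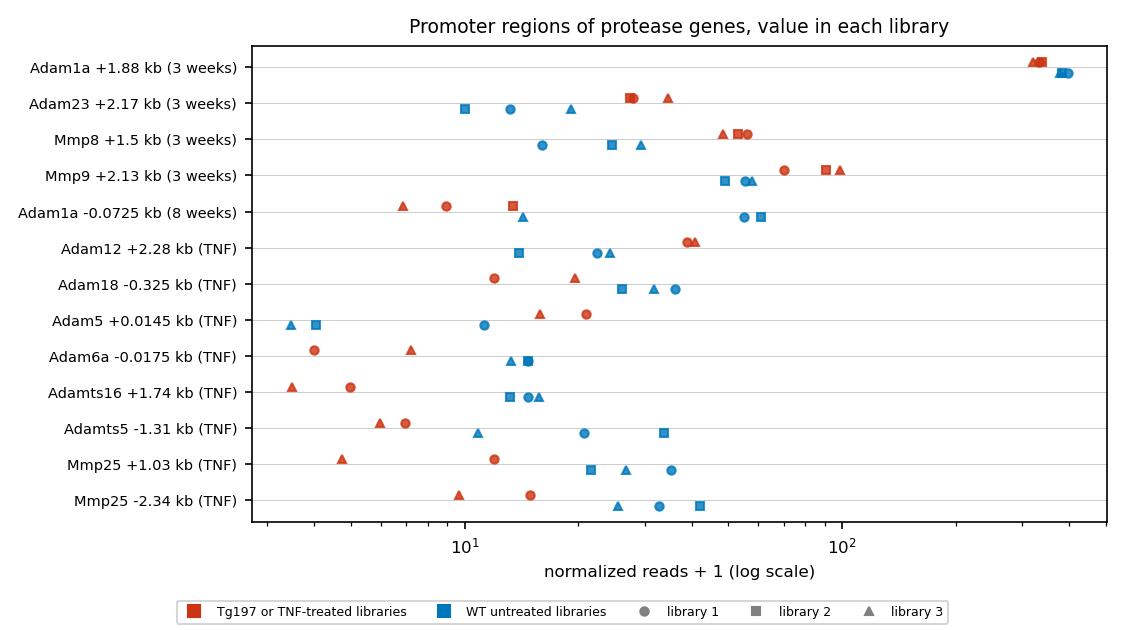
Values of the 13 regions within 3 kb of a start in each library, as normalized reads + 1 on a log axis, with the distance from the start and the comparison beside each gene. Red symbols are Tg197 or TNF-treated libraries and blue symbols are untreated WT libraries. The groups are apart in all 13 rows, with red to the right at Adam23, Mmp8, Mmp9, Adam12 and Adam5. Over all promoter regions the groups overlapped at 93 of 712 at 3 weeks, 430 of 918 at 8 weeks and 29 of 1009 with TNF.

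Of the 44 genes, 18 were listed in 1 table, 16 in 2, 8 in 3, and 2 (Adam12 and Adamtsl1) in all 4. There were 161 pairs of regions of the same gene in different tables, and only 7 pairs at 5 genes overlapped, by 1 bp or more. Both regions passed the test in 3 of these. At Adamts3 the overlap of 500 bp joined a lower region at 3 weeks, with 23.8, 28.3 and 13.8 normalized reads in the Tg197 libraries, against 84.5, 20.8 and 51.1 in the WT libraries (log2 fold -1.06), and one lower after TNF, with 16.9 and 17.4 normalized reads in the TNF-treated libraries, against 62.5, 37.3 and 29.5 in the WT libraries (log2 fold -1.21). These comparisons share no library, and at 3 weeks WT library 2 lay within the Tg197 range. At Adamts14 and Adam9 overlaps of 550 bp joined regions lower at 8 weeks and after TNF, which share the WT libraries. The TNF values were 17.9 and 12.4 normalized reads in the TNF-treated libraries, against 43.7, 58.6 and 18.4 in the WT libraries for Adamts14 (log2 fold -1.23) and 13.9 and 9.92 normalized reads in the TNF-treated libraries, against 25.7, 33.5 and 27.0 in the WT libraries for Adam9 (log2 fold -1.21). Adamts14 was lower in another comparison nearby, with 22.3, 16.0 and 24.1 normalized reads in the Tg197 libraries, against 36.7, 43.7 and 42.9 in the WT libraries at 11 weeks in a region 601 bp from the 8-week one.

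Other neighbours differed in direction. Within 1 kb of each other but without overlap there were 7 pairs. At Adam19 a region higher at 3 weeks (1.15) lay 551 bp from one lower after TNF, which had 7.96 and 8.68 normalized reads in the TNF-treated libraries, against 20.6, 24.4 and 25.8 in the WT libraries. At Adamts13 a region higher at 3 weeks, with 60.5, 60.3 and 62.3 normalized reads in the Tg197 libraries, against 26.3, 40.7 and 27.3 in the WT libraries, lay 201 bp from one lower after TNF, with 5.97 and 9.92 normalized reads in the TNF-treated libraries, against 18.8, 22.1 and 17.2 in the WT libraries. The groups did not overlap in any of these 4 regions, and whether the effects differ between the comparisons was not tested. Mmp11 was lower in both comparisons at regions 401 bp apart, and Adamtsl5 was lower at 11 weeks and after TNF at regions 451 bp apart. The 7 genes with regions past the threshold in both directions within 1 table were Adam12, Adamts13, Adamts14, Adamts2, Adamts20, Adamts3 and Adamtsl1.

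**Figure D5:**
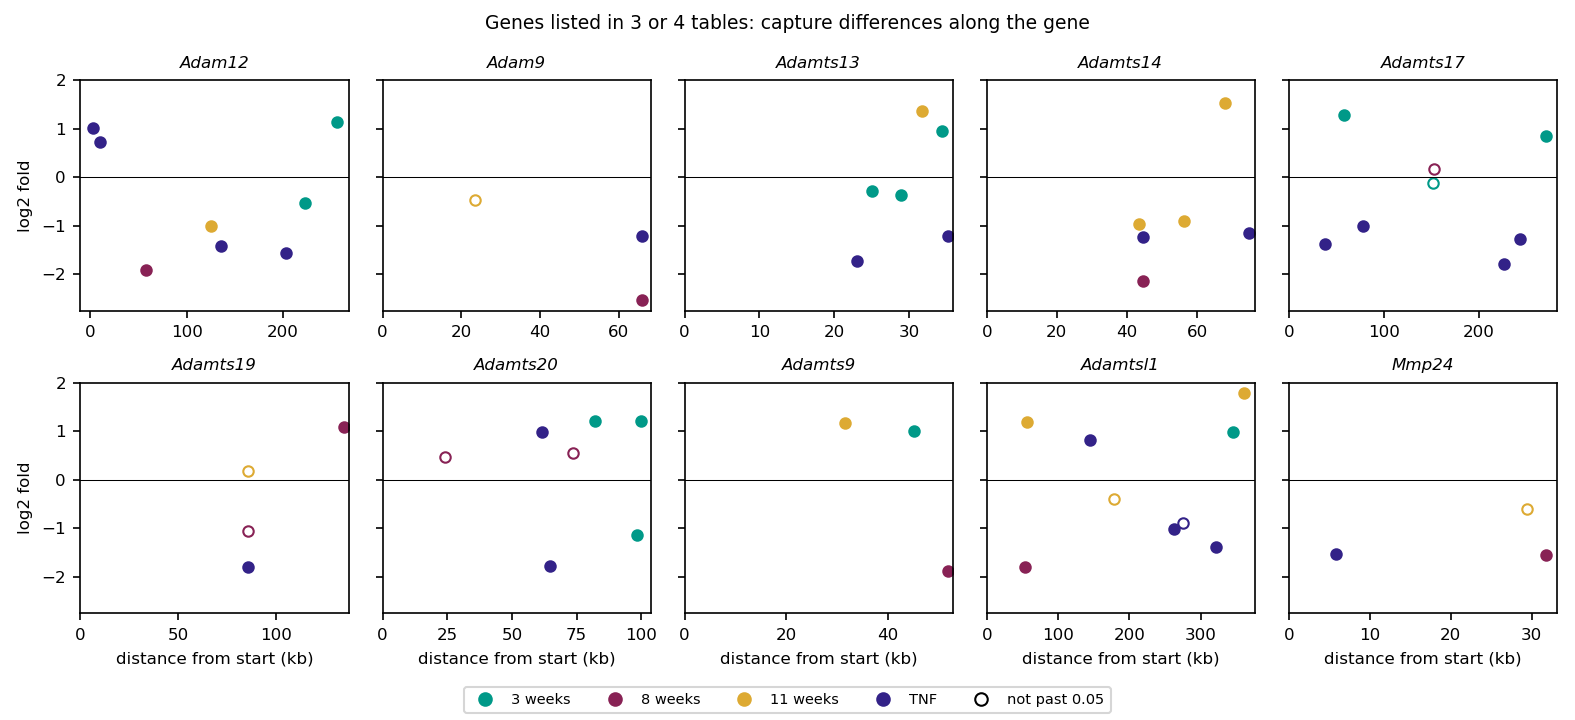
Log2 fold of each region against its distance from the start in kb, for the 10 genes listed in 3 or 4 tables, with the table as colour and open points for regions not past limma's adjusted p of 0.05. At Adam12 the 2 TNF points nearest to the start lie above 0 and the 2 deeper ones below it, and at Adamts20 points of 1 table lie on both sides.

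Several enzymes best known from arthritic joints had no listed region. Of RefSeq's protein-coding genes, 13 of 34 Adam, 16 of 19 Adamts, 2 of 5 Adamtsl, 10 of 23 Mmp and 3 of 4 Timp genes were listed at least once. The aggrecanase gene Adamts4, the stromelysin gene Mmp3, the collagenase gene Mmp13, the gelatinase gene Mmp2, the TNF sheddase gene Adam17 and the inhibitor gene Timp1 were not among them. A gene outside the lists has no value here, so nothing can be said of its methylation.

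Genes that act with these enzymes were described by counts. Of the regions at other matrix proteases, activators and inhibitors, 11 were higher and 4 lower of 16 at 3 weeks, 4 and 7 of 12 at 8 weeks, 9 and 3 of 14 at 11 weeks, and 9 and 18 of 27 after TNF. Over all regions at genes the shares higher and lower were 42.9% and 41.8% at 3 weeks, 12.1% and 45.0% at 8 weeks, 52.7% and 25.6% at 11 weeks, and 20.8% and 73.0% after TNF. Reck, a membrane inhibitor of MMPs, had 3.98, 2.08 and 0 normalized reads in the Tg197 libraries at 8 weeks, against 16.1, 15.0 and 7.74 in the WT libraries (log2 fold -2.43). At 11 weeks 2 other Reck regions were higher (1.61 and 1.56). Of the regions at ADAMTS and MMP substrates, 3 were higher and 4 lower of 8 at 3 weeks, 1 and 1 of 3 at 8 weeks, 4 and 0 of 5 at 11 weeks, and 1 and 9 of 10 after TNF, where 73.0% of all regions at genes were lower. With so few regions nothing is particular to either list. Acan, the gene of aggrecan, was higher at 2 regions at 3 weeks (log2 folds 1.10 and 0.76). It was lower after TNF (-1.11) and did not pass at 11 weeks (0.94). Col2a1, the gene of cartilage collagen, was lower at 2 regions after TNF (-1.60 and -1.85). It was higher at 11 weeks (1.08) and did not pass at 3 weeks (0.10).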

How the data were processed

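MethylCap-seq libraries of 21 mouse synovial fibroblast samples (7 groups of 3) were compared in 4 tables. Per the labels' protocols, DNA was sonicated to 250 bp, methylated DNA was eluted at low and high salt, the fractions were combined, and read pairs of 100 bp were sequenced. Per the submitters' processing notes, BWA, TopHat, TopHat2, Cufflinks, Cuffdiff and mm9 were used, with no roles given. The program that compared the groups is not given in the sources used here.

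Each signal value is a group mean of normalized reads made by the authors, per the file headers. The deposited log2 fold change and each deposited p-value are the authors'. The p-values of regions were used to choose regions to name and for the check against counting. The deposited direction split regions into gained and lost for the library counts. The deposited window p- and q-values gave the number of windows. The values of single libraries are reads divided by 1 size factor per library: whole reads were recovered within 0.1 read for 99.99% to 100.0% of values, and such reads are not independent molecules. Each table was normalized separately, so tests were kept within a table. No column was left out.

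Treatment columns were taken to be Tg197 or TNF-treated, control columns WT. The members and gene lists were chosen with earlier results of these data known. Each table was fitted whole with limma 3.58.1 (R 4.3.3) with a mean trend on log2(value + 1), without a filter, and p-values were adjusted over the table by Benjamini-Hochberg. The fit was also run on simulated data in which few regions were changed. The listed regions were selected for a difference, so that run does not vouch for the calls here. Per-library values are given for up to 3 regions per family and table with the largest fold past the threshold and a mean of at least 10 in one group, up to 3 more per table with the smallest deposited adjusted p, all promoter-class and Timp regions, and genes in at least 2 tables, whose folds stand side by side. Adamts15 at 3 weeks and Adamts7 with TNF fell under none of these rules, and their per-library values were added. For the 2 lists of partner genes, up to 2 regions per table could be named, and the other regions of Acan and Col2a1 are given by fold. Alternatives were other pseudocounts, a filter, no trend, equal library medians, voom on recovered reads, no intergenic regions, adjustment over all windows, a minimum fold and leaving out each library. Tables were handled in Python 3.11.15 with pandas 2.3.3.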

Additional observations from a re-analysis of the deposited data

How the results depend on the processing

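No paired analysis was possible because the 3 values of a group stand in 1 cell without replicate numbers. At 3 weeks the counts of 15 higher and 16 lower regions held under other pseudocounts, a filter on low values, voom on recovered reads and without intergenic regions, and without a trend they were 15 and 13. With library medians equal, 4 were lower and the median log2 fold turned to 0.16. Of all regions at 3 weeks 85.0% passed in the main fit, 71.8% without a trend and 57.8% with library medians equal. With adjustment over all windows 0.183% passed, so the calls changed over the whole set of regions. For the other comparisons the shares under these settings are not given here. A minimum absolute log2 fold of 1 left 8 higher and 2 lower at 3 weeks, 2 lower at 11 weeks and 4 higher with TNF. At 8 weeks a pseudocount of 0.1 left 0 higher and 0 lower (limma; 14 of 19 at an unadjusted p below 0.05, and 2 higher and 6 lower with voom on recovered reads), and a pseudocount of 10 gave a median of -0.90. At 11 weeks equal library medians left 4 higher. With TNF, equal library medians left 0 lower and a median of -0.32, a pseudocount of 10 gave a median of -0.82 and voom one of -1.37. With p-values adjusted over the number of windows inferred from the submitters' q-values, limma called 0 higher and 0 lower in every table, while 31 regions at 3 weeks, 14 at 8 weeks, 18 at 11 weeks and 44 with TNF had an unadjusted p below 0.05. Keeping the identical TNF-treated libraries as 2, chosen after seeing the data, gave 11 higher and 34 lower. The cause of these changes was not tested, apart from the window and fold limits, which allow fewer calls by construction.

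Leaving out each library in turn gave 15 higher, 14 to 15 lower and medians of -0.13 to -0.05 at 3 weeks, 0 to 5 higher, 0 to 10 lower and medians of -1.76 to -1.02 at 8 weeks, 0 to 12 higher, 0 to 8 lower and medians of 0.25 to 0.84 at 11 weeks, and 3 to 10 higher, 25 to 35 lower and medians of -1.45 to -1.14 with TNF. With library medians equal, 10 named folds changed sign, to 0.16 at Adam19, 0.09 at Adam22, 0.03 at Adamts3, 0.04 at Adam1a, 0.16 at Adamts17, 0.07 at Adam5 and 0.16 at Mmp15 at 3 weeks, -0.23 at Adamts19 at 11 weeks, and 0.62 at Timp2 and 0.06 at Adamtsl1 with TNF. Adamts19 at 11 weeks ranged from -0.86 without Tg197 library 3 to 0.79 without Tg197 library 2, and the other Mmp15 region at 3 weeks was -0.01 without Tg197 library 1 or WT library 2. Depth limits the precision: the median level of the higher group over the protease and inhibitor regions was 122 normalized reads at 3 weeks, 39.1 at 8 weeks, 39.7 at 11 weeks and 30.7 with TNF.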
